A study of Danio rerio with 12 samples.

Results

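Hox genes encode homeodomain transcription factors that give positions along the head-to-tail axis their identity, and in vertebrates they lie side by side in clusters. Members were taken as every gene of the deposited table whose symbol is hox, a cluster letter from a to d, a paralogue number and a copy letter a or b, which gave 48 of 14134 genes. The table is RNA-seq of whole zebrafish embryos (Danio rerio), with 12 libraries in 3 groups of 4, each library made from a pool of 5 embryos. Embryos that were healthy and GFP-positive (the labels name no transgene, strain or driver) were dechorionated and treated from 23 hours after fertilization, and RNA was taken at 27 hours, after 4 hours of treatment. Controls received DMSO, the solvent, and the other groups received 50 µM empagliflozin or 50 µM canagliflozin, which are inhibitors of the sodium-glucose cotransporter SGLT2. The labels give no clutch or day, so p-values measure the spread between these pools, which may in part be technical.

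Within a cluster, genes with low paralogue numbers are expressed toward the head, from the hindbrain backward, and genes with high numbers toward the tail, an order called collinearity. Retinoic acid, Fgf, Wnt and Cdx factors set these domains in the embryo, Polycomb proteins keep the clusters silent elsewhere, and Hox proteins bind DNA together with homeodomain cofactors of the Pbx, Meis and Pknox families. The zebrafish genome carries duplicated clusters, called here hoxaa, hoxab, hoxba, hoxbb, hoxca, hoxcb and hoxda, 7 in all. A day-old embryo expresses these genes mainly in hindbrain, spinal cord, neural crest and pharyngeal arches, trunk mesoderm, fin buds and tail bud.

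The members by cluster were as follows. The hoxaa cluster was represented by hoxa1a, hoxa3a, hoxa4a, hoxa5a, hoxa9a, hoxa11a and hoxa13a, and hoxab by hoxa2b, hoxa9b, hoxa10b, hoxa11b and hoxa13b. From hoxba came hoxb1a, hoxb2a, hoxb3a, hoxb4a, hoxb5a, hoxb6a, hoxb7a, hoxb8a, hoxb9a, hoxb10a and hoxb13a, and from hoxbb came hoxb1b, hoxb5b, hoxb6b and hoxb8b. The hoxca cluster gave hoxc1a, hoxc3a, hoxc4a, hoxc5a, hoxc6a, hoxc8a, hoxc9a, hoxc10a, hoxc11a, hoxc12a and hoxc13a, hoxcb gave hoxc6b, hoxc12b and hoxc13b, and hoxda gave hoxd3a, hoxd4a, hoxd9a, hoxd10a, hoxd11a, hoxd12a and hoxd13a. All 48 matched a RefSeq gene by Entrez ID and symbol, and hoxc11b, which RefSeq also lists as protein-coding, was not analysed here. By paralogue number, 14 members were anterior (1 to 4), 12 central (5 to 8) and 22 posterior (9 to 13).

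All 48 members had a mean of at least 1 CPM (a gene's reads scaled to the library's depth and, between libraries, by TMM factors) and entered the tests. Library totals ran from 16149682 to 27842375 reads. A member drew between 30 and 3409 reads in a library, so counting error weighed most on the sparsest genes. The mean over the 12 pools ran from 1.95 CPM for hoxa11a, a posterior gene of the hoxaa cluster, to 110.4 CPM for hoxb3a. CPM is not divided by transcript length, so levels of different genes are not ranked here. In whole embryos, more cells of a type and more RNA per cell cannot be told apart.

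Control 4 and canagliflozin 4 stood apart from their groups over the whole table. Their deviations from their group means correlated at 0.59 over all tested genes, the highest of any pair between groups. On the principal axis of variation over all tested genes (41.8% of it), the empagliflozin pools scored 15.6 to 18.6, control 4 7.52 and canagliflozin 4 5.95. The other controls and canagliflozin pools scored -17.9 to -8.92. On the next axis (15.4%) canagliflozin 4 scored -24.5 and control 4 -7.18, while all other pools, with empagliflozin among them, scored -2.84 to 10.8. Control 4 and canagliflozin 4 also stood apart in the Hox genes, by medians over all 48 members not below those of empagliflozin. Control 4 was above the mean of the other controls in 40 of 48 members, by a median of 0.16 on the log2 scale. Empagliflozin had a median of 0.15 from the same controls. Canagliflozin 4 was above the mean of the other canagliflozin pools in 42 of 48, by a median of 0.31. From those same canagliflozin pools empagliflozin had a median of 0.24. The highest pool of its group was control 4 in 28 members, canagliflozin 4 in 36 and empagliflozin 4 in 26. The same counts over all tested genes are not given, so these cannot be set against the whole table. Because control 4 and canagliflozin 4 stood apart, counts of calls are given with and without them. Both were picked from these same data for lying toward the empagliflozin pools. Leaving them out therefore tends to widen the differences of empagliflozin from the other groups, and such counts are no independent check.

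**Figure D1:**
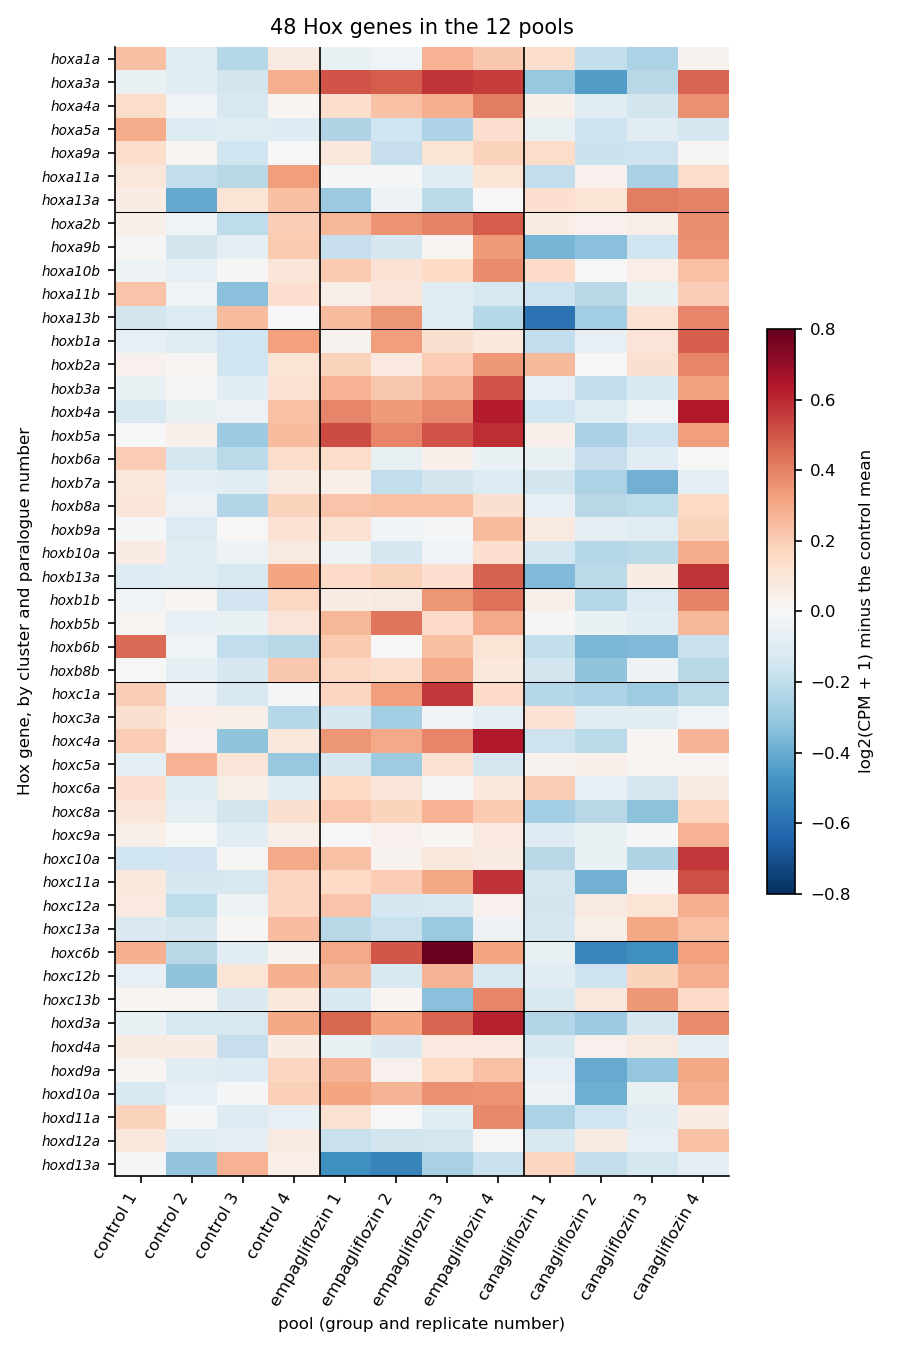
Level of each of the 48 Hox genes (rows, by cluster and paralogue number) in each of the 12 pools (columns), as log2(CPM + 1) minus the mean of the 4 control pools, with red above and blue below the control mean. The empagliflozin columns are red in hoxa3a, hoxb4a, hoxb5a and hoxd3a, control 4 and canagliflozin 4 are red in many rows, and hoxd13a is blue in the empagliflozin columns.

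Empagliflozin against control asks which Hox genes differ after 4 hours in that compound. Of 48 Hox genes 8 rose and 0 fell, that is 16.7% higher, against 6.87% higher and 6.41% lower among the 11964 genes tested (13.3% in either direction). The genes that rose were hoxc1a, hoxa2b, hoxa3a, hoxb3a, hoxd3a, hoxc4a, hoxb5a and hoxb5b, with paralogue numbers of 5 or less, and their folds on the CPM + 1 scale ran from 1.22 to 1.44. At an unadjusted p under 0.05 there were 17 members, against 32.4% of all genes, and edgeR called 7 higher and DESeq2 9. Shares of all genes called by edgeR and DESeq2 are not given here or below, so their counts cannot be set against the whole table. The 4 empagliflozin pools all lay above the 4 controls in 12 members and all below in 0, against 9.55% and 9.51% of all tested genes. The median log2 fold change was 0.10 over the members and -0.0011 over all genes tested, and 35 of 48 members were above 0, against 49.7% of all genes. The 40 members that did not pass ran from -0.36 to 0.48.

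The count moved with the pools used. It was 0 without control 2, control 3, empagliflozin 3 or empagliflozin 4, 1 without empagliflozin 1 or 2, and 2 without control 1. Leaving out canagliflozin 1 or 3, which enter through the shared spread, gave 5, and leaving out canagliflozin 4 gave 13. Without control 4, hoxc1a lost its call and the other genes called kept theirs. Without canagliflozin 2, hoxb5b and hoxc1a lost their calls and the others kept theirs. For fits without a single pool, here and below, the share of all genes called is not given. These counts therefore cannot be set against the whole table. Without control 4 and canagliflozin 4 together 20 rose and 1, hoxc3a, fell, against 18.9% higher and 16.6% lower of all genes. By region that was 10 of 14 anterior, 6 of 12 central and 4 of 22 posterior members higher, with medians of 0.29, 0.16 and 0.08.

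**Figure D2:**
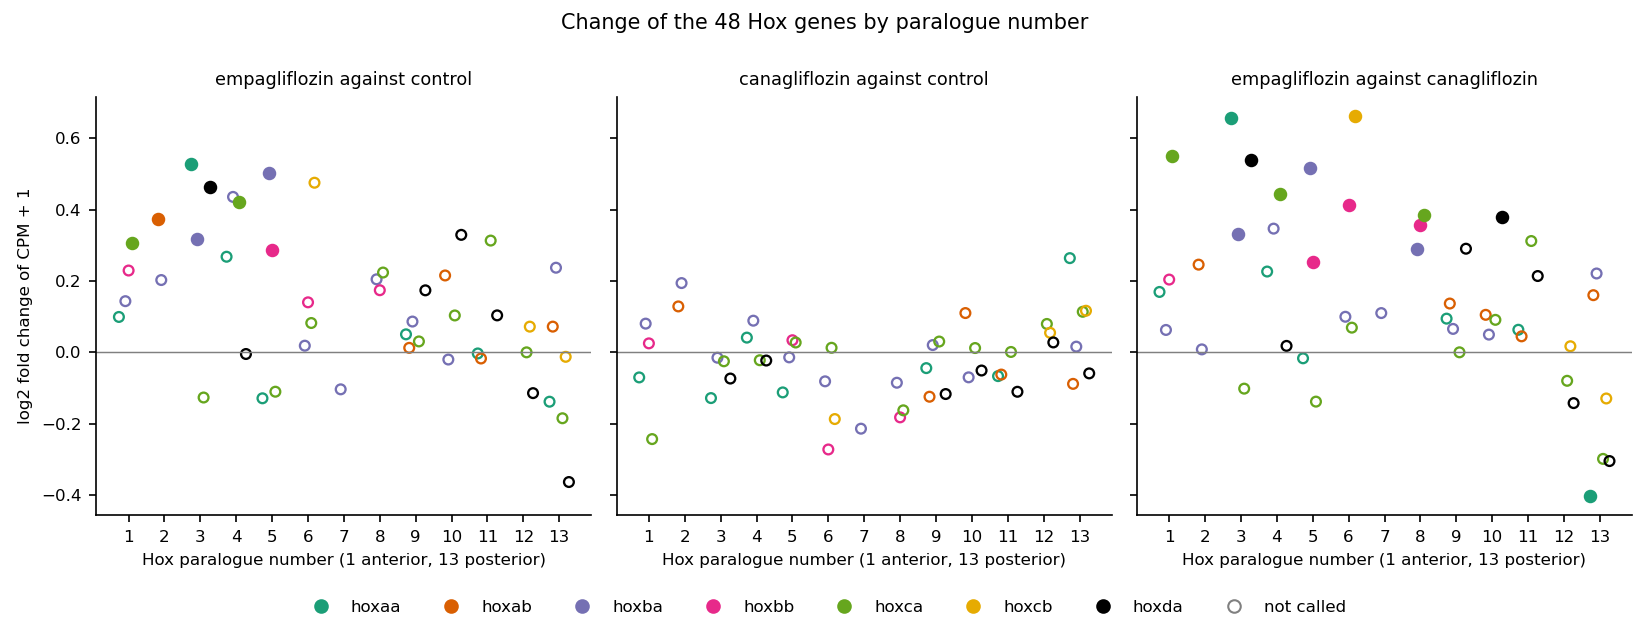
Log2 fold change of CPM + 1 (vertical axis) of each Hox gene against its paralogue number (horizontal axis, points offset by cluster and coloured by it) in the 3 comparisons, with filled points for genes called at an adjusted p under 0.05. In the left panel the filled points lie at paralogue numbers 1 to 5, no point is filled in the middle panel, and in the right panel filled points reach paralogue number 10 above 0 and include hoxa13a below 0.

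The anterior genes held most of the calls. Among anterior members 6 of 14 rose, with a median log2 fold change of 0.29, among central members 2 of 12 rose with a median of 0.16, and among posterior members 0 of 22 rose or fell with a median of 0.04. Across the 48 genes Spearman's rho between paralogue number and log2 fold change was -0.47, as a description only, since all genes were measured in the same pools. In control 4 the medians from the other controls were 0.15, 0.11 and 0.20 for anterior, central and posterior genes, and in empagliflozin they were 0.29, 0.16 and 0.08 from the same 3 controls. Control 4 thus had its largest median in the posterior genes and empagliflozin in the anterior genes. Canagliflozin 4 had medians of 0.41, 0.15 and 0.30 from the other canagliflozin pools, also largest in the anterior genes. These differences were not tested. Posterior genes also had less signal per gene. Control sums averaged 449 CPM over the 14 anterior, 228 over the 12 central and 290 over the 22 posterior genes. Counting error and the pseudocount weigh more on genes with low values, so paralogue number and level were not separated here.

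Summed over the 14 anterior genes, the signal was 453, 441, 411 and 491 CPM in control pools 1 to 4 and 529, 519, 564 and 601 in the empagliflozin pools. The lowest empagliflozin pool was above the highest control. The 12 central genes summed to 246, 218, 202 and 245 CPM in control and 265, 261, 268 and 259 in empagliflozin, again without overlap. For the 22 posterior genes the sums were 293, 269, 278 and 319.7 and 307, 287, 294 and 334 CPM, and these ranges overlapped. Canagliflozin 4 summed to 556, 248 and 352 CPM over the anterior, central and posterior genes. The anterior sum was within the empagliflozin range, the central sum below it and the posterior sum above every empagliflozin pool. Genes with high CPM weigh most in such sums. In the central set hoxb8a, at a mean of 68.2 CPM, was not called against control, and its empagliflozin and control pools overlapped.

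**Figure D3:**
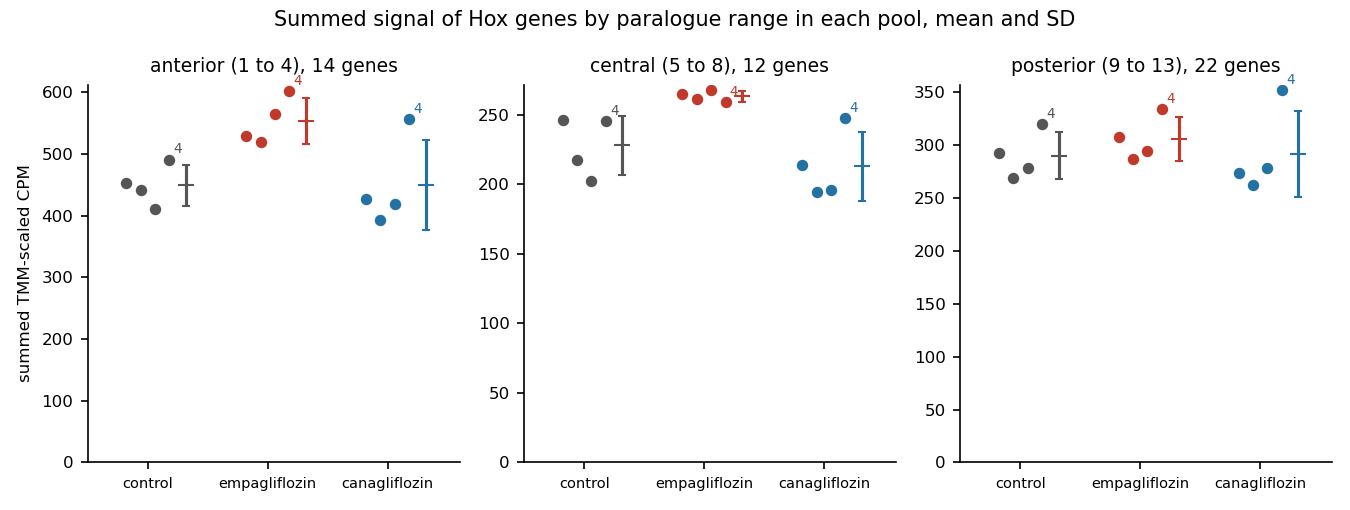
Summed TMM-scaled CPM of the anterior, central and posterior Hox genes (panels) in each pool (points, with pool 4 of each group marked 4), with the mean and SD of each group beside them. The empagliflozin pools lie above all controls in the anterior and central panels, while canagliflozin 4 lies above the other canagliflozin pools in each panel.

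Among paralogue groups 1 and 2, which pattern the hindbrain, hoxc1a and hoxa2b rose. hoxa2b, which specifies the second pharyngeal arch, stood at 22.1, 20.9, 18.4 and 24.7 CPM in control pools 1 to 4, at 25.9, 27.7, 28.5 and 30.4 in the empagliflozin pools and at 22.4, 21.98, 22.2 and 28.0 in the canagliflozin pools. The empagliflozin pools did not overlap the controls, and the log2 fold change was 0.37 (95% interval 0.16 to 0.59, limma adjusted p 0.0269). hoxc1a, of the hoxca cluster, was at 22.7, 19.0, 17.9 and 19.4 CPM in control pools 1 to 4, at 22.3, 25.1, 29.6 and 21.97 in the empagliflozin pools and at 16.6, 16.3, 16.0 and 16.9 in the canagliflozin pools. Control 1 was above 2 of the empagliflozin pools, and the change of 0.31 had the highest adjusted p of the 8 calls (interval 0.10 to 0.51, limma adjusted p 0.0499), lost in 15 of 23 alternative analyses. hoxb1a, which marks the fourth hindbrain segment and guides facial motor neurons, differed by 0.14, hoxb1b by 0.23, hoxa1a by 0.10 and hoxb2a by 0.20, and none of these passed. Calls of the other 7 genes were lost in 6 to 13 of the 23.

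Of the 4 genes of paralogue group 3, which act in the caudal hindbrain and the pharyngeal arches, 3 rose. hoxa3a, with the largest log2 change among the calls, stood at 54.7, 53.7, 51.5 and 69.8 CPM in control pools 1 to 4, at 81.1, 80.1, 85.4 and 84.3 in the empagliflozin pools and at 45.9, 41.5, 48.8 and 79.0 in the canagliflozin pools. All empagliflozin pools were above all controls, and canagliflozin 4 was far above the other 3 canagliflozin pools. The means were 82.7 ± 2.52 CPM with empagliflozin and 57.4 ± 8.36 in control (SD, n = 4 each), a log2 change of 0.53 (interval 0.21 to 0.85, limma adjusted p 0.0347).

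hoxd3a, the paralogue in the hoxda cluster, was at 34.8, 32.9, 32.9 and 45.0 CPM in control pools 1 to 4, at 50.1, 45.1, 50.3 and 55.9 in the empagliflozin pools and at 30.5, 29.3, 32.6 and 47.3 in the canagliflozin pools. Its lowest empagliflozin pool was just above control 4, and the other controls were lower (log2 0.46, interval 0.18 to 0.75, limma adjusted p 0.0360). hoxb3a was at 98.2, 102, 96.2 and 111 CPM in control pools 1 to 4, at 124, 118, 123 and 145 in the empagliflozin pools and at 97.0, 89.0, 93.6 and 127 in the canagliflozin pools. Here too the groups did not overlap, with a log2 change of 0.32 and a limma adjusted p of 0.0474. hoxc3a, the remaining gene of the group, differed by -0.13 (interval -0.31 to 0.06) and did not pass. Control 4 stood 0.38 above the other controls in hoxa3a, 0.41 in hoxd3a and 0.16 in hoxb3a on the log2 scale, and at -0.30 in hoxc3a. Without control 4 and canagliflozin 4 the log2 changes of hoxa3a, hoxd3a and hoxb3a were 0.62, 0.57 and 0.36.

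Paralogue groups 4 and 5 mark the caudal hindbrain and the anterior spinal cord. hoxc4a stood at 22.03, 19.5, 15.0 and 20.2 CPM in control pools 1 to 4, at 24.6, 23.7, 25.2 and 30.3 in the empagliflozin pools and at 16.9, 16.3, 19.3 and 23.2 in the canagliflozin pools. The lowest empagliflozin pool was above the highest control (log2 0.42, interval 0.16 to 0.69, limma adjusted p 0.0385). hoxb4a was at 17.0, 17.8, 18.02 and 22.1 CPM in control pools 1 to 4, at 24.8, 23.9, 24.6 and 29.3 in the empagliflozin pools and at 16.6, 17.4, 18.2 and 29.6 in the canagliflozin pools. Its pools did not overlap either, and its log2 difference was 0.44, but the limma adjusted p was 0.0578 and the gene was not called (it is given in full because of that p). hoxa4a differed by 0.27 and hoxd4a by -0.0045, without passing.

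Both zebrafish copies of Hoxb5 rose. hoxb5a stood at 17.7, 18.2, 14.3 and 21.3 CPM in control pools 1 to 4, at 25.9, 23.5, 25.6 and 27.2 in the empagliflozin pools and at 18.2, 14.7, 15.7 and 22.6 in the canagliflozin pools. The highest control, control 4, was below the lowest empagliflozin pool, and the log2 change was 0.50 (interval 0.23 to 0.77, limma adjusted p 0.0232). hoxb5b, which in zebrafish acts in the forelimb field and limits the number of heart cells, was at 29.5, 27.7, 28.0 and 31.3 CPM in control pools 1 to 4, at 35.3, 39.5, 32.5 and 36.1 in the empagliflozin pools and at 29.3, 28.1, 27.3 and 35.3 in the canagliflozin pools. This gene changed by 0.29 (interval 0.10 to 0.47, limma adjusted p 0.0426), with no overlap between the 2 groups. The other members of group 5 did not pass, with hoxa5a at -0.13 and hoxc5a at -0.11.

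**Figure D4:**
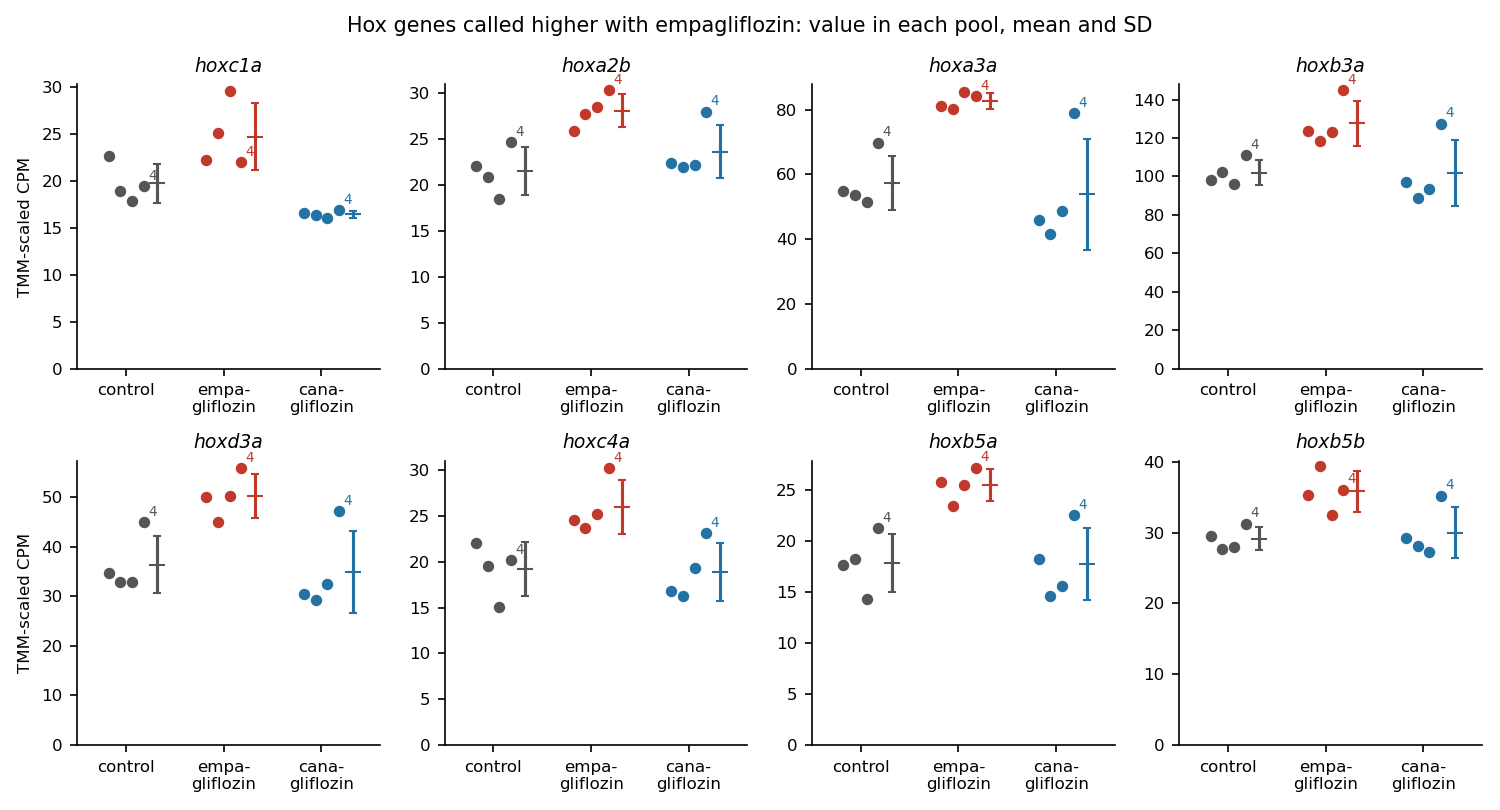
TMM-scaled CPM (vertical axis) of the 8 Hox genes called higher with empagliflozin, in each pool of the 3 groups (points, with pool 4 marked 4), with the mean and SD beside the points. In hoxa2b, hoxa3a, hoxb3a, hoxb5a, hoxb5b and hoxd3a control 4 and canagliflozin 4 are the highest pools of their groups. In hoxc1a control 1 reaches above 2 empagliflozin pools.

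Members with paralogue numbers of 6 and above did not pass against control. In size, hoxc6b differed by 0.48 (limma adjusted p 0.0815), hoxd10a by 0.33 (0.0704) and hoxc11a by 0.31 (0.191), while hoxb6a, hoxb9a and hoxc9a differed by 0.02, 0.09 and 0.03. hoxd13a, which acts at the far end of fins and limbs, stood at 2.86, 2.14, 3.72 and 3.04 CPM in control pools 1 to 4, at 1.78, 1.70, 2.26 and 2.46 in the empagliflozin pools and at 3.39, 2.42, 2.53 and 2.70 in the canagliflozin pools. Its log2 difference was -0.36 (interval -0.67 to -0.06, limma adjusted p 0.0940), the lowest of the members, and control 2 was within the empagliflozin range. Of the 6 members of group 13, 4 had a log2 difference below 0 and 2 above 0, and 0 passed. hoxc13b was the nearest to 0 of the 4 below, at -0.01.

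Median log2 changes by paralogue number, from 1 to 13, were 0.19, 0.29, 0.39, 0.35, 0.09, 0.11, -0.10, 0.20, 0.05, 0.16, 0.05, 0.00021 and -0.08, with group 7 being hoxb7a alone. Groups 3 and 4 had the highest medians and groups 7 and 13 were below 0.

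By cluster, the calls were spread over 6 of the 7. They were 2 of 11 members of hoxba, 2 of 11 of hoxca, and 1 each in hoxaa (7 members), hoxab (5), hoxbb (4) and hoxda (7), with 0 of 3 in hoxcb. Median log2 changes were 0.20 in hoxba, 0.20 in hoxbb, 0.10 in hoxda, 0.08 in hoxca, 0.07 in hoxab, 0.07 in hoxcb and 0.05 in hoxaa. Within hoxaa the values ran from -0.14 to 0.53, so genes of 1 cluster did not share a value.

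Some Hox gene models overlap in RefSeq, where the long models of group 3 genes run across neighbours. These models are on the GRCz12tu assembly, not on the danRer10 build that the submitters' processing notes name. The hoxa3a model overlaps hoxa4a and hoxa5a, hoxb3a overlaps hoxb4a, hoxb5a and hoxb6a, hoxd3a overlaps hoxd4a, hoxb1b overlaps hoxb5b and hoxb6b, and hoxc3a overlaps hoxc4a, hoxc5a, hoxc6a, hoxc8a and hoxc9a. The assignment of reads in such stretches is not given in the sources used here, so the values of these 18 genes are uncertain to that extent. Among the 18 are hoxa3a, hoxb3a, hoxd3a, hoxc4a, hoxb5a and hoxb5b, which were called higher with empagliflozin against control. Counting models of other genes, 31 of the 48 members overlap another gene, among them hoxa2b and hoxc1a. Log2 values of overlapping genes were alike in direction in some pairs and not in others. hoxb3a changed by 0.32 beside 0.44 for hoxb4a and 0.50 for hoxb5a. hoxa3a changed by 0.53 beside 0.27 for hoxa4a and -0.13 for hoxa5a, and hoxb1b by 0.23 beside 0.29 for hoxb5b. hoxd3a changed by 0.46 beside -0.0045 for hoxd4a, hoxb3a by 0.32 beside 0.02 for hoxb6a, and hoxc4a by 0.42 beside -0.13 for hoxc3a. The tests of these differences were not made.

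For 10 pairs both the a and the b copy were in the table. With empagliflozin against control, both copies of Hoxb5 rose, and in the other 9 pairs neither copy passed. The copies of Hoxc6 had log2 differences of 0.08 for hoxc6a and 0.48 for hoxc6b. For Hoxb8 they were 0.20 and 0.17, and for Hoxb1 0.14 and 0.23. The authors' deposited table of this comparison had 10 Hox genes higher and 0 lower at a false discovery rate under 0.05, of which 7 were called here. That table had 1901 of 11969 genes under 0.05, in either direction. It added hoxb4a (0.0143), hoxc6b (0.0291) and hoxd10a (0.0279), values being its false discovery rates. hoxc1a, called here, did not pass there (0.0647).

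The canagliflozin pools, at matched dose and time, were compared with the same 4 controls. No Hox gene was called: 21 had a higher log2 mean (48.9% of all genes did) and 27 a lower one, and the median log2 fold change was -0.02, against -0.0028 over all genes. In limma 0 of 48 passed, as did 0 of all 11964 genes (0.0%). At an unadjusted p under 0.05 there were 2 members, hoxc1a and hoxb7a, against 7.73% of all genes, and edgeR and DESeq2 called 0 members. In 1 member the pools did not overlap, with canagliflozin below control, and in 0 they lay above, against 1.83% and 2.66% of all genes.

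The smallest unadjusted p values were those of hoxc1a, hoxb7a, hoxb6b and hoxb2a. hoxc1a had a mean of 16.5 ± 0.385 CPM with canagliflozin and 19.7 ± 2.06 in control (SD, n = 4 each), a log2 difference of -0.24 (interval -0.45 to -0.03, limma adjusted p 0.604). It is the member whose canagliflozin pools all lay below the controls. hoxb7a, a trunk gene of the hoxba cluster, was at 9.17, 8.09, 7.95 and 9.01 CPM in control pools 1 to 4, at 8.82, 7.32, 7.61 and 7.83 in the empagliflozin pools and at 7.63, 7.02, 6.31 and 8.05 in the canagliflozin pools. Its log2 difference was -0.21 (limma adjusted p 0.635), and the groups overlapped. hoxb6b had the lowest difference of the members, -0.27 (0.642). hoxb2a, which acts in the hindbrain and the second arch, was at 23.4, 23.0, 20.3 and 24.6 CPM in control pools 1 to 4, at 26.04, 24.1, 26.4 and 29.2 in the empagliflozin pools and at 27.4, 22.8, 24.9 and 30.2 in the canagliflozin pools. It differed by 0.19 (0.645), and the groups overlapped.

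Of the genes that rose with empagliflozin, hoxa3a differed here by -0.13 (interval -0.45 to 0.19), hoxd3a by -0.07 (-0.36 to 0.21) and hoxb5a by -0.01 (-0.28 to 0.26). The median half-width of the 95% interval over members was 0.25 on the log2 scale, before any adjustment for the number of genes tested. Canagliflozin 4 stood 0.79 above the other canagliflozin pools in hoxa3a, 0.60 in hoxd3a and 0.46 in hoxb5a. Without control 4 and canagliflozin 4 the log2 differences of these genes were -0.23, -0.12 and -0.04, and again 0 members passed. Medians were -0.02 for anterior, -0.10 for central and 0.01 for posterior members. The authors' deposited table also had 0 Hox genes under 0.05, with 3 of 11954 genes under it in all.

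Empagliflozin against canagliflozin sets the 2 inhibitors side by side at 50 µM each and after equal time, and it uses the same empagliflozin pools as the comparison with control. Anterior and central Hox genes made up most of the calls: 13 of 48 were higher and 1, hoxa13a, was lower. That is 27.1% higher, against 12.4% higher and 13.1% lower of all genes (25.5% in either direction). At an unadjusted p under 0.05 there were 20 members, against 39.2% of all genes, and 39 of 48 lay above 0, against 51.3%. Calls comprised 5 of 14 anterior members (hoxc1a, hoxa3a, hoxb3a, hoxd3a and hoxc4a), 7 of 12 central members (hoxb5a, hoxb5b, hoxb6b, hoxc6b, hoxb8a, hoxb8b and hoxc8a), and of 22 posterior members hoxd10a higher and hoxa13a lower. The median log2 fold change was 0.12 over the members and 0.01 over all genes, with 0.24, 0.27 and 0.06 for anterior, central and posterior members. As in the comparison with control, paralogue number and level were not separated. In 7 members all empagliflozin pools lay above all canagliflozin pools and in 1 below, against 11.9% and 13.7% of all genes.

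All 3 measured genes of paralogue group 8, which pattern the trunk spinal cord and mesoderm, were among the calls. hoxc8a stood at 41.1, 36.3, 34.5 and 41.9 CPM in control pools 1 to 4, at 45.0, 43.6, 46.8 and 44.6 in the empagliflozin pools and at 31.6, 32.8, 30.3 and 43.4 in the canagliflozin pools. Empagliflozin pools were above every canagliflozin pool, and canagliflozin 4 was the highest of its group (log2 0.39, interval 0.17 to 0.60, limma adjusted p 0.0121). hoxb8b was at 15.2, 14.3, 13.7 and 17.8 CPM in control pools 1 to 4, at 17.2, 16.8, 19.0 and 16.2 in the empagliflozin pools and at 13.6, 11.99, 14.8 and 12.9 in the canagliflozin pools. Empagliflozin and canagliflozin pools did not overlap, and canagliflozin 4 was not apart (log2 0.36, limma adjusted p 0.0138). hoxb8a was at 70.3, 63.7, 55.8 and 74.8 CPM in control pools 1 to 4, at 77.1, 77.4, 77.5 and 72.0 in the empagliflozin pools and at 62.7, 56.1, 56.9 and 73.6 in the canagliflozin pools. Here canagliflozin 4 was above empagliflozin 4 (log2 0.29, limma adjusted p 0.0376).

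In group 6 the b copies passed. hoxc6b, of the small hoxcb cluster, stood at 8.47, 5.66, 6.30 and 6.92 CPM in control pools 1 to 4, at 8.57, 9.94, 12.4 and 8.68 in the empagliflozin pools and at 6.45, 4.41, 4.52 and 8.76 in the canagliflozin pools. Its spread was wide, canagliflozin 4 was above empagliflozin 1 and 4, and the log2 difference of 0.66 was the largest of the members (interval 0.29 to 1.04, limma adjusted p 0.0138). hoxb6b was at 15.6, 10.8, 9.55 and 9.38 CPM in control pools 1 to 4, at 13.001, 11.2, 13.3 and 12.04 in the empagliflozin pools and at 9.61, 8.38, 8.498 and 9.69 in the canagliflozin pools. All empagliflozin pools were above all canagliflozin pools, and control 1 was above both groups (log2 0.41, limma adjusted p 0.0298). Their a copies did not pass, with 0.07 for hoxc6a and 0.10 for hoxb6a.

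Among posterior genes, hoxd10a, which in mice patterns lumbar motor neurons, was at 15.9, 16.6, 17.3 and 20.1 CPM in control pools 1 to 4, at 21.97, 21.2, 22.7 and 22.7 in the empagliflozin pools and at 16.9, 13.04, 16.7 and 21.5 in the canagliflozin pools. Canagliflozin 4 lay within the empagliflozin range and the other 3 below it (log2 0.38, limma adjusted p 0.0266). hoxa13a, a gene of the tail and the distal fin, was at 3.56, 2.30, 3.72 and 4.17 CPM in control pools 1 to 4, at 2.58, 3.25, 2.78 and 3.36 in the empagliflozin pools and at 3.82, 3.73, 4.82 and 4.78 in the canagliflozin pools. All empagliflozin pools lay below all canagliflozin pools (log2 -0.40, interval -0.70 to -0.10, limma adjusted p 0.0484), but the call was lost in 14 of 22 alternatives. Other group 13 genes did not pass, with hoxd13a at -0.30, hoxc13a at -0.30 and hoxb13a at 0.22. hoxa11a, the sparsest member, was at 2.16, 1.59, 1.55 and 2.75 CPM in control pools 1 to 4, at 1.96, 1.94, 1.78 and 2.21 in the empagliflozin pools and at 1.60, 2.05, 1.49 and 2.30 in the canagliflozin pools, with overlap of all groups.

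The largest anterior differences were those of hoxa3a, at 0.66 (interval 0.34 to 0.97, limma adjusted p 0.00616), hoxc1a, at 0.55 (0.00157) and hoxd3a, at 0.54 (0.00990). hoxb5a differed by 0.52 (0.00920), hoxc4a by 0.44 (0.0178), hoxb3a by 0.33 (0.0238) and hoxb5b by 0.25 (0.0442). hoxa2b, called against control, differed here by 0.25 (0.0782) and did not pass, with an interval of 0.04 to 0.46. Under all 23 alternatives hoxa3a, hoxb5a, hoxb8b, hoxc1a, hoxc8a and hoxd3a kept their call. Of the count of 13, 7 to 9 were left without canagliflozin 1, 2 or 3 or empagliflozin 1, 3 or 4, and there were 20 without canagliflozin 4. With control 4 and canagliflozin 4 left out together, 22 were higher and 0 lower, against 21.1% and 19.8% of all genes. The authors' deposited table of this comparison had 9 Hox genes under 0.05, 8 higher and 1 lower, and all of them were called here too. Genes called here that did not pass there were hoxb3a (0.0731), hoxb5b (0.128), hoxb8a (0.0868), hoxb8b (0.0524) and hoxd10a (0.0551). These values are false discovery rates of the authors' table. In all, that table had 1861 of 11967 genes under 0.05, in either direction.

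Most measured genes for the cofactors that Hox proteins bind were higher with empagliflozin. Of 14 listed genes of the Pbx, Meis and Pknox families 12 were measured, and against control 8 rose and 1 fell, beside 6.87% and 6.41% of all genes, with a median log2 fold change of 0.34. Those that rose were pbx1a, pbx1b, pbx3b, pbx4, meis1b, meis2a, meis2b and meis3, and pknox1.1 fell, while meis1a, pbx2 and pknox2 did not pass. pbx4, the main Pbx gene of the early zebrafish hindbrain, stood at 338, 323, 336 and 384 CPM in control pools 1 to 4, at 404, 412, 447 and 445 in the empagliflozin pools and at 336, 356, 375 and 418 in the canagliflozin pools. The empagliflozin pools were all above the controls, and control 4 and canagliflozin 4 were the highest of their groups (log2 0.31, interval 0.14 to 0.47, limma adjusted p 0.0230).

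pbx1a was at 9.76, 11.98, 10.6 and 14.01 CPM in control pools 1 to 4, at 18.4, 16.6, 15.7 and 18.4 in the empagliflozin pools and at 12.5, 11.9, 11.3 and 10.7 in the canagliflozin pools. Canagliflozin 4 was the lowest of its group here, and the log2 change was 0.55 (limma adjusted p 0.00806). pbx3b was at 36.6, 40.5, 25.9 and 31.7 CPM in control pools 1 to 4, at 45.3, 51.8, 49.8 and 50.5 in the empagliflozin pools and at 30.5, 35.3, 36.2 and 42.5 in the canagliflozin pools. In this gene control 4 lay among the other controls (log2 0.56, limma adjusted p 0.0141). meis2a was at 118, 119.7, 112 and 152 CPM in control pools 1 to 4, at 174, 182, 171 and 179 in the empagliflozin pools and at 128, 127, 133 and 187 in the canagliflozin pools. Canagliflozin 4 was above every empagliflozin pool, with a log2 change of 0.50 against control (limma adjusted p 0.0176). meis2b changed by 0.40 (0.0186) and pknox1.1 by -0.34 (0.0200).

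Against canagliflozin 5 of the 12 cofactor genes were higher and 1 lower, beside 12.4% and 13.1% of all genes, with a median of 0.26. Canagliflozin against control gave 0 calls and a median of 0.02. The count of 8 was 4, 2 and 2 without control 1, 2 and 3, and 5, 4, 4 and 5 without empagliflozin 1, 2, 3 and 4. When control 4 and canagliflozin 4 were left out 11 of 12 rose and 1 fell against control, beside 18.9% and 16.6% of all genes. In control 4 the list's median was 0.24 from the other controls, and in canagliflozin 4 it was 0.34 from the other canagliflozin pools.

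**Figure D5:**
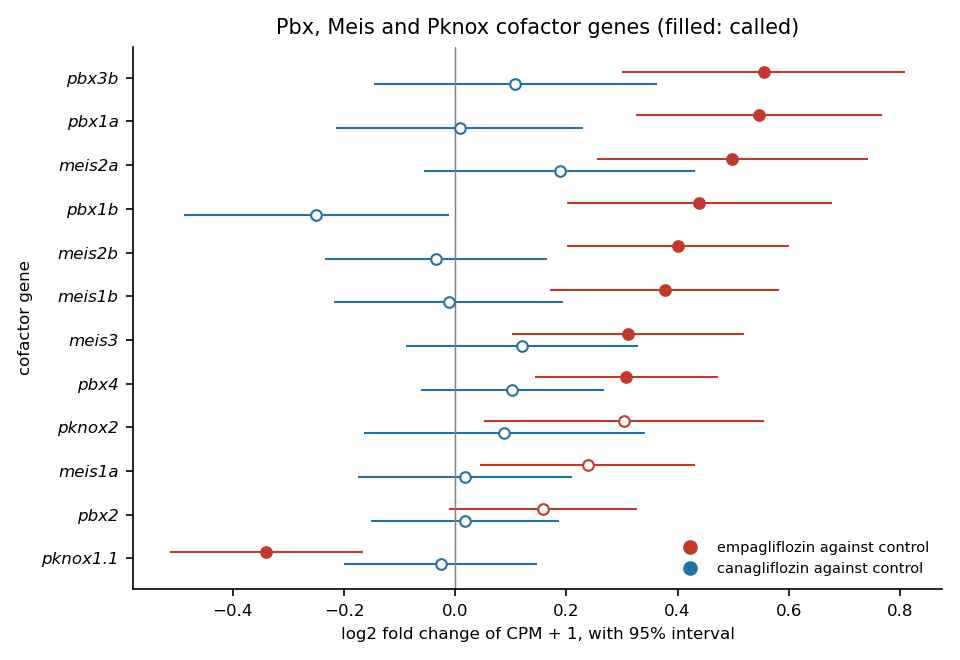
Log2 fold change of CPM + 1 (horizontal axis) with its 95% interval (line) of the 12 measured Pbx, Meis and Pknox genes (rows), for empagliflozin against control (red) and canagliflozin against control (blue), with filled points for genes called. In red 8 genes are called above 0 and pknox1.1 below 0, and in blue 0 are called.

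Other genes that act on Hox clusters were called in both directions, and their counts stand against 6.87% higher and 6.41% lower of all genes. In the retinoic acid pathway, 4 of 24 genes rose and 1 fell against control, with a median of 0.11. Those that rose were rarga, a retinoic acid receptor (0.23, limma adjusted p 0.0359), the partner receptor rxrba (0.33, 0.00885) and the binding proteins crabp2b (0.55, 0.0338) and crabp1b (0.31, 0.0358). The gene that fell was rdh10b, an enzyme of retinoic acid synthesis (-0.51, 0.0401), named after its value was seen. Of 9 measured Cdx and tailbud genes 1 rose, gdf11, a secreted factor that in mice promotes posterior Hox expression (0.38, 0.0275), and 0 fell. Of 29 Polycomb genes 6 rose and 2 fell, with a median of 0.06: phc2b changed by 0.58 (0.00655), rybpb by 0.44 (0.0182) and jarid2b by 0.46 (0.0292), while rbbp4 changed by -0.28 (0.0269). Of 8 measured genes of the opposing trithorax group and H3K27 demethylases 3 rose and 1 fell. kmt2a, which methylates histone H3 at Hox genes, changed by 0.47 (0.0375), the demethylase kdm6bb by 0.38 (0.0189), kdm6al by 0.33 (0.0495) and dpy30 by -0.31 (0.0445). Leaving out control 4 and canagliflozin 4, the retinoic acid genes gave 8 higher and 3 lower, the Cdx and tailbud genes 2 and 0, the Polycomb genes 8 and 2 and the trithorax list 4 and 1, against 18.9% and 16.6% of all genes.

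Homeobox genes outside the clusters were called as well, against the same 6.87% higher and 6.41% lower of all genes. Without control 4 and canagliflozin 4 those shares were 18.9% and 16.6%. Of 21 measured homeobox genes of the forebrain, eye and midbrain, where Hox genes are silent, 3 rose and 0 fell, with a median of 0.29, but 12 rose without control 4 and canagliflozin 4. The 3 were lhx2b (0.49, limma adjusted p 0.00596), barhl2 (0.54, 0.0246) and rx2 (0.42, 0.0312). Of 11 even-skipped, Mnx and ParaHox genes, which are relatives of the Hox genes, 3 rose and 0 fell, with a median of 0.27, and 5 rose without those libraries. The 3 were evx2, which lies beside the hoxda cluster (0.47, 0.0247), the motor neuron gene mnx1 (0.52, 0.0347) and gsx1 (0.33, 0.0444).

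The 3 nearest tested genes on each side of every cluster, 42 in all by RefSeq order (also on GRCz12tu), had a median log2 fold change of -0.03 against control, with 4 higher and 0 lower. That is 9.52% higher, against 6.87% of all genes. Leaving out control 4 and canagliflozin 4 gave 9 higher and 3 lower, against 18.9% and 16.6%. The 4 were evx2, rarga, which lies near the hoxca cluster, and zeb1b (0.32) and znf438 (0.36) near hoxbb. This set was added after the Hox values had been seen.

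Markers of cell types that carry or lack Hox expression moved beside these results, and their part in them was not tested. Among all genes 6.87% rose and 6.41% fell. Of 12 motor neuron genes 4 rose and 1 fell against control, and their summed level was 163 to 181 CPM in control, 194 to 218 with empagliflozin and 162 to 192 with canagliflozin. Among those that rose, lhx3 changed by 0.65 (limma adjusted p 0.0142), foxp1b by 0.35 (0.0214) and isl1 by 0.35 (0.0237). The gene that fell changed by -0.27 and was the only 1 of the 12 below 0. Of 16 hindbrain segmentation genes 1, efnb3b, rose (0.38, 0.0125) and 0 fell, with sums of 556 to 567 CPM in control, 567 to 618 and 576 to 597 in the same order. mafba, a regulator of group 3 genes in the hindbrain, was at 35.5 ± 2.90 CPM with empagliflozin and 27.4 ± 7.38 in control (SD, n = 4 each; limma adjusted p 0.0932). Of 10 pectoral fin bud genes 0 passed, with 1 at an unadjusted p under 0.05, and the smallest limma adjusted p was that of tbx5b (0.131).

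As a check of the labelled tissue, 20 of 21 markers of other embryonic cell types were measured, from neurons to muscle, blood, heart, epidermis, notochord and vessels, each with a mean of at least 1 CPM. Against control 2 rose, the neuron genes elavl3 (0.37, limma adjusted p 0.00467) and elavl4 (0.47, 0.00768), and 3 fell, the myeloid gene lyz (-0.48, 0.0171), the transferrin gene tfa (-0.69, 0.00556) and the heart gene myl7 (-0.33, 0.0143). With control 4 and canagliflozin 4 left out the counts were 5 higher and 1 lower for motor neurons, 3 and 1 for hindbrain segmentation, 1 and 0 for the fin bud and 5 and 5 for the other cell types. In that setting 18.9% of all genes were higher and 16.6% lower. The summed level of the other cell types was 37683 to 42611 CPM in control, 35436 to 39021 with empagliflozin and 39861 to 47154 with canagliflozin. The control range overlapped both others, and the highest empagliflozin pool was below the lowest canagliflozin pool. The part of this difference in the Hox results was not tested. With canagliflozin against control 0 genes passed in each of these lists.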

How the data were processed

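RNA from 12 pools of zebrafish embryos was made into stranded mRNA libraries and read as 50 bp pairs, per the labels' protocols. FastQC, the danRer10 build and R 3.6.1 are named in the submitters' processing notes. What aligner, counter and filter were used is not given in the sources used here. Values were deposited as a signal per gene and library, CPM scaled by TMM: 100% of values were whole reads within 0.001 reads, and factors recomputed in edgeR equalled those in the table. The authors' comparison tables hold p-values and false discovery rates, and a deposited log2 fold change. Of 14134 genes, 11964 had a mean of at least 1 CPM.

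limma 3.58.1 (R 4.3.3; lmFit, eBayes with trend) was fitted on log2(CPM + 1) with all 3 groups, two-sided, with Benjamini-Hochberg adjustment over the genes tested and a threshold of 0.05. A pseudocount of 1 understates changes of low genes. A count of 0 would allow up to 3 reads, or 0.109 to 0.186 CPM, which covers counting error only, as these reads carry no molecular identifiers. edgeR 4.0.16 and DESeq2 1.42.0 were run on recovered reads. Members and lists were chosen with earlier results of these data known. Values in every pool are given for members called in any comparison, the 4 with the smallest unadjusted p in each, and the highest and lowest mean. hoxb4a and hoxd13a were added after their values were seen. From other lists, up to 4 genes with the smallest p against control were eligible. The fit was tested on simulated counts: with 1.5-fold changes, 70.1% were recovered for empagliflozin against control over 11970 genes, and with 1.25-fold 13.4%. In the simulation genes varied independently and few were changed, whereas 13.3% of genes were called in this comparison of the data. No shift of a whole pool was simulated either, so recovery in the data may differ.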

Additional observations from a re-analysis of the deposited data

Results flagged for a closer look

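In 11 of 144 groups of 4 pools (48 Hox genes in 3 groups), 1 pool stood apart from the others, its gap to the nearest pool, as a share of the group's range, being above Dixon's 95% critical value, where chance alone would flag about 1 group in 20. Control 4 was high in hoxb1a (14.1 CPM against 9.81 to 10.5 in the other controls), hoxb13a (10.1 CPM against 7.18 to 7.42) and hoxd3a (45.0 CPM against 32.9 to 34.8). Canagliflozin 4 was high in hoxa2b (28.0 CPM against 21.98 to 22.4 in the other canagliflozin pools), hoxb4a (29.6 CPM against 16.6 to 18.2) and hoxb10a (24.4 CPM against 16.6 to 17.8). Empagliflozin 4 was high in hoxb4a (29.3 CPM against 23.9 to 24.8 in the other empagliflozin pools) and hoxb13a (11.4 CPM against 8.82 to 9.17), and low in hoxb8a (72.0 CPM against 77.1 to 77.5). Control 1 was high in hoxa5a (11.9 CPM against 8.80 to 8.83), and control 3 was low in hoxd4a (20.2 CPM against 24.1 to 24.3). These values were measured and their cause was not tested.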

How the results depend on the processing

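Of the 8 Hox genes called for empagliflozin against control, all kept their direction under the 23 alternatives, and 0 kept their call in every one. Of the 14 called against canagliflozin, all kept their direction and 6 their call. With no minimum level 2 Hox genes rose against control. Without control 4 and canagliflozin 4 together 20 rose and 1 fell against control, and 22 were higher and 0 lower against canagliflozin. Leaving out 1 library gave 0 to 13 higher and 0 lower against control, and 7 to 20 higher and 0 to 2 lower against canagliflozin. The single lower call against canagliflozin, hoxa13a, came to 0 with a pseudocount of 0.1, no minimum or median centring, and to 2 with DESeq2. A minimum of 5 CPM also gave 0, because hoxa13a was then not tested. For the cofactor genes, leaving out 1 library gave 2 to 11 higher and 0 to 1 lower against control, and 4 to 10 higher and 1 lower against canagliflozin. Without control 4 and canagliflozin 4 together 11 were higher against canagliflozin, beside 21.1% of all genes. Those alternatives were chosen for this list after its count had been seen. The cause of these changes was not tested. The sample titles give the groups the same replicate numbers. Deviations of same-numbered pools correlated at -0.12 to 0.59, with 2 of 12 pairs over 0.1, so the numbers were not taken as pairs. The 0.59 was that of control 4 with canagliflozin 4, so these pools shared part of their deviation. Empagliflozin 4 correlated at -0.10 with control 4 and at 0.07 with canagliflozin 4. The source of the shared part was not tested. With the replicate number as a block, 9 Hox genes rose against control, 16 were higher and 2 lower against canagliflozin, and 9 cofactor genes were higher against canagliflozin. Apart from the fit without control 4 and canagliflozin 4 together, the share of all genes called is not given for these alternatives. Their counts therefore cannot be set against the whole table.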
